A study of Mus musculus with 11 samples.

Results

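A set of 10 genes around the lysosome was followed in mouse embryonic fibroblasts, connective tissue cells grown from embryos, that carry or lack the cytoplasmic β-actin gene Actb. They are Gpnmb, the transcription factor genes Mitf, Tfeb and Tfe3, the cathepsin genes Ctsk, Ctsb, Ctsd and Ctsl, the lysosomal membrane gene Lamp1 and the legumain gene Lgmn. All 10 were found by symbol among the 46469 symbols of the deposited tables, each as 1 locus. They were chosen with their levels in view, Gpnmb above all, so the levels of the 10 genes and the differences between genotypes are given as a description, without a test. The study asked how expression programmes follow the number of intact Actb genes. Poly(A) RNA was sequenced from Actb -/- cells (KO, n = 3, numbered 1, 3 and 4), Actb +/- cells (Het, n = 4) and Actb +/+ cells (WT, n = 4). All groups share the BALB/c strain, an embryonic age of 10.5 days and culture in DMEM with 10% fetal bovine serum, and RNA was taken at 70% confluence. The labels do not say whether the replicates came from separate embryos or cultures, so the p-values given for other genes measure the spread between these libraries, which may be technical.

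MITF, TFEB and TFE3, with TFEC, form a family of transcription factors that bind DNA as dimers at E-box motifs, and many of their target genes encode lysosomal proteins. In nutrient-rich cells the kinase mTORC1, recruited to the lysosome by the Rag GTPases and folliculin, phosphorylates TFEB and TFE3 and holds them in the cytoplasm, so their activity is set largely by location rather than by mRNA level. GPNMB is a transmembrane glycoprotein known from melanocytes, osteoclasts and lipid-laden macrophages and is a known target of this family. Cathepsins and legumain are proteases that mature in the acid interior of the lysosome, and LAMP1 is an abundant glycoprotein of its membrane.

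The values are FPKM, a fragment level per length of transcript and per library size, brought to a common scale over the 11 libraries. In the targeted gene, Actb (chromosome 5, 142903116 to 142906724), FPKM averaged 45.8 ± 1.27 in KO, 837 ± 24.0 in Het and 1325 ± 199.6 in WT (SD, n = 3, 4 and 4), in the order of the labels. A library held 13885 to 14202 genes at 1 FPKM or more, and depth relative to WT 1 ran from 61.4% in WT 3 to 125% in WT 4. Over genes, libraries of the same group correlated at 0.947 to 0.983, and libraries of different groups at 0.907 to 0.949. Over the 14948 genes that passed the filter on low values (at least 1 FPKM in at least 3 libraries), the median log2 difference was 0.01 in each of the 3 comparisons. The common scale itself brings this median near 0. Without scaling it was -0.08 in KO against WT, 0.01 in Het against WT and -0.09 in KO against Het.

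Gpnmb (gene14518, chromosome 6, 49036518 to 49058182 on GRCm38) was abundant in Het libraries and near the limit of detection in all others. Its FPKM was 0.0446, 0.0573 and 0.0847 in KO 1, 3 and 4, 46.6, 54.7, 57.0 and 52.9 in Het 1 to 4, and 0, 0.0769, 0.0443 and 0.106 in WT 1 to 4. The Het libraries stood far above both other groups, while the KO and WT libraries overlapped. The means were 0.0622 ± 0.0205 FPKM in KO, 52.8 ± 4.45 in Het and 0.0567 ± 0.0453 in WT (SD, n = 3, 4 and 4). On the log2(FPKM + 1) scale the fitted difference was 0.01 ± 0.08 for KO against WT, 5.67 ± 0.08 for Het against WT and -5.66 ± 0.08 for KO against Het (SE). In bulk RNA, more cells with Gpnmb and more Gpnmb RNA per cell cannot be told apart. The size of the Het difference depends on the pseudocount because the other groups lie near 0. Its position among the 10 genes by mean FPKM shows the contrast: in Het cells Gpnmb lay just under Ctsb, and in KO and WT cells it had the lowest mean of the 10, although in KO 4 its level (0.0847) was above that of Ctsk (0.0735).

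The width of the interval that Cufflinks gives for each FPKM was used to judge how much sequencing lies behind these values. For Gpnmb it corresponded to 1, 2 and 3 fragments in the KO libraries, 1361 to 2359 fragments in the Het libraries, and 0 to 5 fragments in the WT libraries. These numbers are equivalents read from the interval and are no counts of reads. Differences between KO and WT at these levels were not detectable at this depth. No other locus of the tables overlaps Gpnmb.

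**Figure D1:**
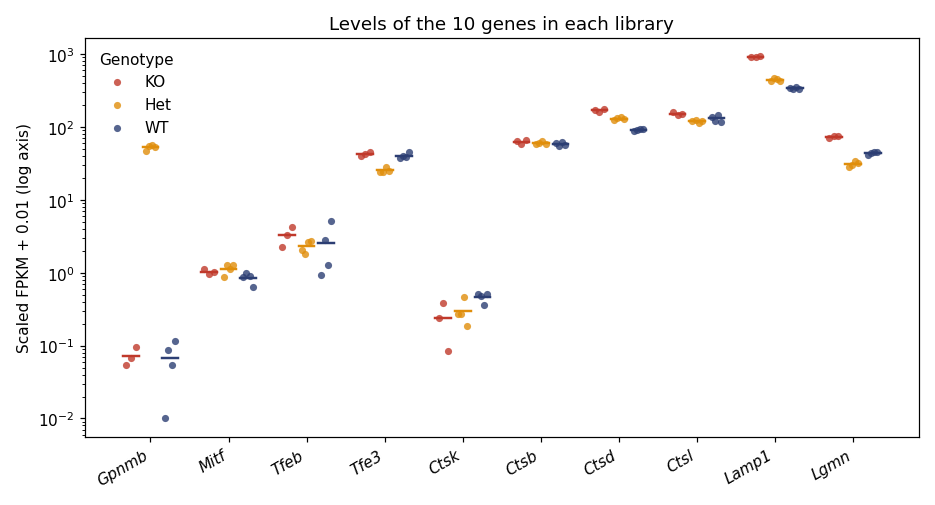
Scaled FPKM (plus 0.01, log axis) of the 10 genes in each library, with KO, Het and WT side by side for each gene; points are libraries and bars are group means (n = 3, 4 and 4). Gpnmb stands at 46.6 to 57.0 FPKM in Het and at no more than 0.106 FPKM in every KO and WT library, and Lamp1 is the most abundant of the 10 genes in each group.

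The 5 genes whose pattern over the 11 libraries was most like that of Gpnmb, by Pearson correlation of log2(FPKM + 1) among 9027 candidate genes, were Xist (r = 0.9993), Dkk3 (0.9987), Thbs2 (0.998), Slc43a3 (0.997) and Dcn (0.997). These correlations describe a shared contrast of 4 Het libraries with the other 7 and are given without a p-value. Xist, the noncoding RNA made from the inactive X chromosome of female cells, averaged 0.0449 ± 0.0109 FPKM in KO, 48.9 ± 3.45 in Het and 0.0503 ± 0.0105 in WT. Dkk3, a secreted glycoprotein of the Dickkopf family, averaged 0.329 FPKM in KO, 20.3 in Het and 0.430 in WT. Dcn, which encodes the matrix proteoglycan decorin, averaged 1.18 FPKM in KO, 60.0 in Het and 0.803 in WT. Thbs2, a matrix glycoprotein of the thrombospondin family, averaged 0.973, 8.32 and 0.931 FPKM in KO, Het and WT. Slc43a3, a purine nucleobase transporter, was listed at 0 in the 3 KO libraries and averaged 11.1 FPKM in Het and 0.187 in WT.

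Xist is a sex-linked measure, and the labels give no sex of the embryos. It was at 44.0 to 51.5 FPKM in the 4 Het libraries and below 0.06 FPKM in each KO and WT library. The Y-linked genes Ddx3y, Eif2s3y, Kdm5d and Uty averaged at most 0.173 FPKM in any group, and Kdm5d was listed at 0 in all 11 libraries. Genotype and the difference in Xist cannot be told apart in these libraries, and the part of Xist in the levels of Gpnmb or of any other of the 10 genes was not tested. These sex-linked genes, other than Xist, were chosen after their values were seen.

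The neighbours of Gpnmb on chromosome 6 were either near 0 in all 3 groups or present in all of them. Of the 4 nearest named genes on each side, Doxl2 and Svs1 were listed at 0 in all libraries and Aoc1 stayed at or below 0.0261 FPKM on average. Tmem176b, a transmembrane protein gene that ends 190.6 kb before Gpnmb, measured 93.1, 96.0 and 88.3 FPKM in KO, 245, 264, 253 and 246 in Het and 114, 118, 133 and 118 in WT. It rose in Het against WT (log2 difference 1.06, adjusted p = 2.18e-07, limma with Benjamini-Hochberg adjustment) and fell in KO against WT (-0.38, adjusted p = 0.000555). Igf2bp3, an RNA-binding protein gene on the other side, averaged 21.8 FPKM in KO, 33.3 in Het and 11.1 in WT and rose in both Het (1.52, adjusted p = 2.55e-07, limma) and KO (0.92, adjusted p = 1.32e-05). Its locus overlaps that of Malsu1, so reads of this pair may be shared. Tra2a, a splicing regulator gene, rose in Het against WT by 0.23 (adjusted p = 0.0281, limma), a call lost without WT 2, WT 4, Het 2 or Het 4 (adjusted p 0.0584 to 0.0811), with a replicate block (0.0511) or with only the Het and WT libraries fitted (0.0529), and neither Malsu1 nor Ccdc126 passed the test in any comparison.

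**Figure D2:**
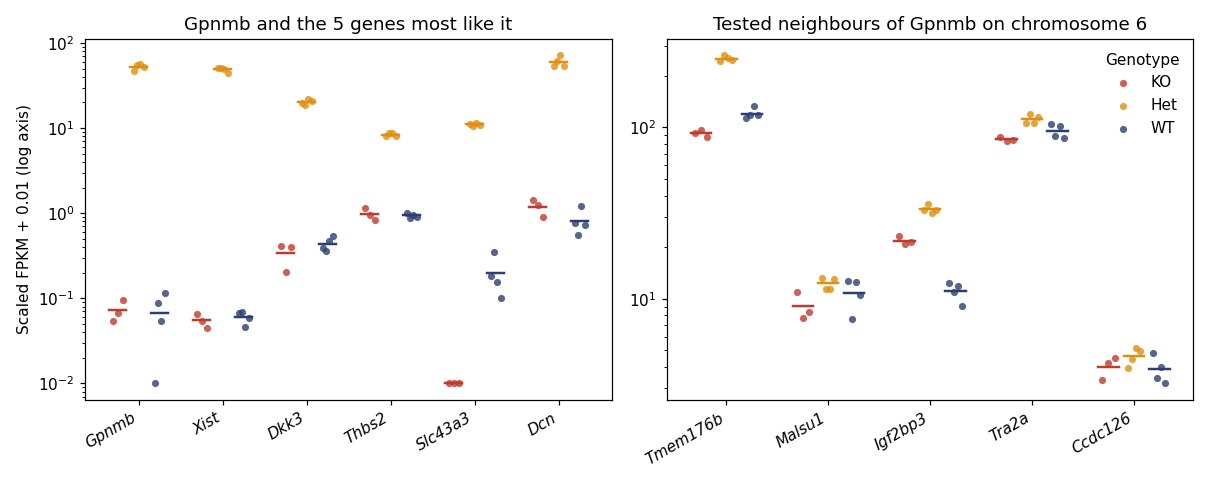
Scaled FPKM (plus 0.01, log axis) of Gpnmb with the 5 genes most like it (left) and of its tested neighbours on chromosome 6 (right) in each KO, Het and WT library; bars are group means. The genes on the left were ranked by this likeness, so their shared Het level is the rule itself, and on the right Tmem176b averages 92.5 FPKM in KO, 252 in Het and 121 in WT.

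The promoter of Gpnmb is shown because its Het level was the widest contrast among the 10 genes. It is the 250 bases before the annotated start, RefSeq on GRCm38.p6, chr6:49036268-49036517, plus strand, with the E-box core CANNTG in capitals.

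Gpnmb: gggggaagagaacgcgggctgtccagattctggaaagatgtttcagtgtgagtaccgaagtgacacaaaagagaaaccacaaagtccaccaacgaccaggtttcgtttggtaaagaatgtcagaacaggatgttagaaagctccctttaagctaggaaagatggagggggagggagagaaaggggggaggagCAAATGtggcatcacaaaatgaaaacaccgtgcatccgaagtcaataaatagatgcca

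The MITF/TFE motifs searched for were CACGTG, the longer TCACGTGA that contains it, and TCATGTG, each on both strands in the window from 250 bases before to 50 bases after each start. None of them is in the Gpnmb window, which holds the looser CANNTG at -58 and 4 (positions count from the start). CANNTG is found in 72.3% of all 32851 promoter windows.

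Of the transcription factors, Tfe3 was the most abundant and the one whose groups stood apart. Tfe3 (gene43713, chromosome X, 7762538 to 7775202) measured 40.6, 42.1 and 45.3 FPKM in KO 1, 3 and 4, 23.9, 24.5, 28.1 and 24.7 in Het 1 to 4, and 37.8, 40.1, 38.4 and 45.3 in WT 1 to 4. Every Het library lay below every KO and WT library, and the KO and WT libraries overlapped. The means were 42.7 ± 2.39 FPKM in KO, 25.3 ± 1.88 in Het and 40.4 ± 3.41 in WT (SD, n = 3, 4 and 4). The log2 difference was 0.08 ± 0.08 for KO against WT, -0.65 ± 0.07 for Het against WT and 0.73 ± 0.08 for KO against Het (SE). The small KO to WT difference was -0.02 without scaling between libraries. Tfe3 is X-linked, and Xist was high in Het libraries. Of the 561 X-linked genes tested, 193 rose and 73 fell in Het against WT by limma (median log2 difference 0.12). Over all 14948 tested genes, 3243 rose (21.7%) and 3303 fell (22.1%) in this comparison. Of the 6 other tested X-linked genes in the lysosomal lists, Gla, Lamp2, Atp6ap2 and Rab9 rose in Het, and Ids and Atp6ap1 did not pass the test. The part of X linkage or of Xist in the level of Tfe3 was not tested.

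Tfeb (gene40420, chromosome 17, 47737037 to 47792416) was low and scattered. It measured 2.27, 3.29 and 4.20 FPKM in KO, 2.04, 1.78, 2.65 and 2.75 in Het and 0.934, 2.80, 1.25 and 5.07 in WT. The 4 WT libraries spanned the values of both other groups, with WT 1 lowest and WT 4 highest of all 11. Means were 3.25 ± 0.968 in KO, 2.30 ± 0.469 in Het and 2.51 ± 1.89 in WT, and the log2 difference of KO against WT was 0.40 ± 0.34 (SE). Mitf (gene15472, chromosome 6, 97807003 to 98021360), the melanocyte and osteoclast member of the family, measured 1.13, 0.936 and 1.03 FPKM in KO, 0.852, 1.26, 1.11 and 1.28 in Het and 0.861, 0.993, 0.906 and 0.632 in WT. The 3 groups overlapped, and the log2 difference was 0.14 ± 0.10 for KO against WT and 0.20 ± 0.09 for Het against WT. Without scaling the KO against WT difference of Mitf was 0.09. Tfec, the fourth member, was listed at 0 in all 11 libraries. Tfe3 had the highest level of the 4 family genes in every library.

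Lamp1, Ctsd and Lgmn were the 3 genes whose groups were apart from each other in all 3 comparisons. Lamp1 (gene20329, chromosome 8, 13159134 to 13175338) measured 900.3, 922 and 943 FPKM in KO 1, 3 and 4, 426, 467, 457 and 431 in Het 1 to 4, and 339, 328, 355 and 333 in WT 1 to 4. KO libraries were the highest and WT libraries the lowest, with Het libraries between them and nearer to WT. The means were 922 ± 21.3 FPKM in KO, 445 ± 19.7 in Het and 339 ± 12 in WT (SD, n = 3, 4 and 4). The log2 difference was 1.44 ± 0.06 for KO against WT, 0.39 ± 0.05 for Het against WT and 1.05 ± 0.06 for KO against Het (SE).

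Ctsd (gene20083, chromosome 7, 142375916 to 142387870) encodes cathepsin D, the main aspartic protease of the lysosome. It measured 171, 159 and 177 FPKM in KO, 126, 132, 135 and 128 in Het and 89.1, 91.1, 94.5 and 94.2 in WT. The order of the groups was the same as for Lamp1, but here Het lay near the middle. Means were 169 ± 9.41 FPKM in KO, 131 ± 4.12 in Het and 92.2 ± 2.58 in WT, and the log2 difference was 0.87 ± 0.05 for KO against WT, 0.50 ± 0.05 for Het against WT and 0.37 ± 0.05 for KO against Het (SE).

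Lgmn (gene31022, chromosome 12, 102394098 to 102439697) encodes legumain, an endopeptidase that cuts after asparagine and processes cathepsin precursors. It measured 70.7, 75.7 and 74.1 FPKM in KO, 28.4, 30.4, 34.4 and 31.7 in Het and 41.6, 44.0, 45.2 and 44.8 in WT. Lgmn was highest in KO as well, but its lowest libraries were the Het ones, not the WT ones. Means were 73.5 ± 2.51 FPKM in KO, 31.2 ± 2.49 in Het and 43.9 ± 1.62 in WT, and the log2 difference was 0.73 ± 0.07 for KO against WT, -0.48 ± 0.06 for Het against WT and 1.21 ± 0.07 for KO against Het (SE). Lgmn and Tfe3 were the genes of the 10 whose Het libraries all lay below the WT libraries.

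The cysteine cathepsins varied less. Ctsl (gene32989, chromosome 13, 64363214 to 64370883), which encodes cathepsin L, measured 161, 145 and 153 FPKM in KO, 119, 123, 114 and 121 in Het and 138, 123, 148 and 117 in WT. All KO libraries lay above all Het libraries, and the WT libraries, with an SD of 14.2 around 131, overlapped both. The log2 difference was 0.22 ± 0.08 for KO against WT and 0.36 ± 0.08 for KO against Het (SE), and without scaling the KO against WT difference was 0.12. Ctsb (gene35296, chromosome 14, 63122462 to 63145923), which encodes cathepsin B, measured 64.9, 58.6 and 65.7 FPKM in KO, 58.6, 61.2, 63.7 and 58.3 in Het and 61.0, 55.3, 62.9 and 56.0 in WT. Its groups overlapped throughout, and each fitted log2 difference was at most 0.10. The sign for KO against Het changed to -0.05 without scaling and -0.01 with upper quartile scaling.

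Ctsk (gene7539, chromosome 3, 95499210 to 95509387), the collagen-degrading cathepsin of osteoclasts and a known target of MITF and TFE3, was the only gene of the 10 below the filter on low values and was not fitted. It measured 0.232, 0.373 and 0.0735 FPKM in KO, 0.264, 0.259, 0.459 and 0.175 in Het and 0.503, 0.467, 0.346 and 0.495 in WT. The groups overlapped. Gpnmb and Ctsk, both targets of the family in other cells, thus differed in that only Gpnmb was present at more than 1 FPKM in any library.

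**Figure D3:**
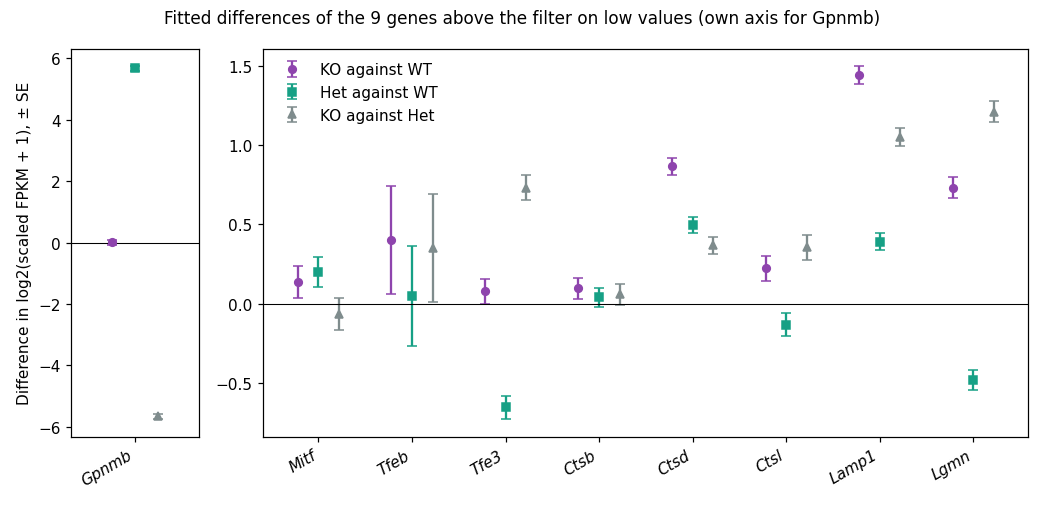
Fitted difference in log2(scaled FPKM + 1), with its SE, of the 9 genes above the filter for KO against WT, Het against WT and KO against Het; Gpnmb has its own axis because its Het difference is 5.67. Lamp1 (1.44, KO against WT), Ctsd (0.87) and Lgmn (0.73) lie above 0 in KO, and Tfe3 (-0.65) and Lgmn (-0.48) lie below 0 in Het against WT.

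Counted over the 10 genes, KO libraries were all above WT libraries for 3 (Ctsd, Lamp1 and Lgmn), all below for 0 and overlapping for 7. Over all tested genes the KO and WT groups did not overlap for 46.4%, with 22.8% higher and 23.6% lower in KO. Het libraries were all above WT libraries for 3 (Gpnmb, Ctsd and Lamp1), all below for 2 (Tfe3 and Lgmn) and overlapping for 5, beside 39.5% not overlapping over all tested genes (19.4% higher and 20% lower). KO libraries were all above Het libraries for 5 (Tfe3, Ctsd, Ctsl, Lamp1 and Lgmn), all below for 1 (Gpnmb) and overlapping for 4, beside 54% over all tested genes (27.2% higher and 26.7% lower). KO and Het were each compared with the same 4 WT libraries, so these comparisons are not independent. As the genes were chosen on these values, nothing is read from the counts.

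The order of the mean levels, which FPKM allows because it is per length, was led by Lamp1 in each group. In KO it was followed by Ctsd and Ctsl, whose libraries overlapped, then by Lgmn, Ctsb and Tfe3, each apart from its neighbours. In Het it was followed by Ctsd, Ctsl, Ctsb, Gpnmb, Lgmn and Tfe3, each apart from the next. In WT, Ctsl lay above Ctsd, Ctsb followed, and Lgmn and Tfe3 overlapped. Tfeb, Mitf and Ctsk came last in this order in each group, except that the mean of Gpnmb was lower still in KO and WT; in KO the libraries of Gpnmb and Ctsk overlapped. Tfeb and Mitf overlapped only in WT.

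The promoters of Lamp1 and Ctsd are printed because these genes were highest in KO and hold CACGTG near the start. The windows are from RefSeq on GRCm38.p6, chr8:13158911-13159133 (plus strand) for Lamp1 and chr7:142387871-142388077 (minus strand) for Ctsd, with CACGTG in capitals. A second pair of Lamp1 motifs follows the first, chr8:13159133-13159151.

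Lamp1: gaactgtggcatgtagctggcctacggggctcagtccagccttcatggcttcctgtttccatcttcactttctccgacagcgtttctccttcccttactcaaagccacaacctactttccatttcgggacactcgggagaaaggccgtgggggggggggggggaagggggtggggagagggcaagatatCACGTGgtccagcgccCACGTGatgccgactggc
Lamp1 second pair: CACGTGaccacatCACGTG
Ctsd: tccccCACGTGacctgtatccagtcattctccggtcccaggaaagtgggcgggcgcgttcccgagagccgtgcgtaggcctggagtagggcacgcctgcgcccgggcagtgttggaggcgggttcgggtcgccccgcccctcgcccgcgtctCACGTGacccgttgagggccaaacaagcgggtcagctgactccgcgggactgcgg

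The Lamp1 window holds CACGTG 4 times, at -61, -45, -28 and -15 from the annotated start. The Ctsd window holds it at -245 and -98, and the copy at -98 lies in a TCACGTGA that starts at -99. Of the 2 Lgmn windows, the inner start has CACGTG at -49 and the outer start has none, and the Ctsl window has it at -236. The windows of Gpnmb, Ctsk, Mitf, Tfeb and Tfe3 hold none of CACGTG, TCACGTGA and TCATGTG. Over all promoter windows CACGTG is found in 7.15%, against 25 of 125 windows (20%) of the other lysosomal genes listed below. TCACGTGA is in 0.974% of all windows and 11.2% of these, and TCATGTG in 3.77% and 9.6%. These are letters in a window, and no binding was measured.

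The wider lysosomal system was described with 135 other genes in 5 lists by function, of which 122 were tested. In KO against WT, 57 rose, 24 fell and 41 did not pass the test (limma, adjusted over all 14948 genes, threshold 0.05), beside 47.1% called over all tested genes, 23.3% higher and 23.8% lower. Their median log2 difference was 0.23, against 0.01 over all tested genes. Without scaling the counts were 48 and 32, and with upper quartile scaling 49 and 29, while the split over all genes moved from 49.4% higher to 37.1% and 43.2%. Without KO 3, 15 genes were lower in place of 24. In Het against WT, 37 rose and 22 fell, beside 43.8% called over all genes (21.7% higher and 22.1% lower), with a median of 0.09. In KO against Het, 40 rose and 25 fell, beside 44.2% called (22% higher and 22.2% lower), with a median of 0.14. Without scaling the KO against Het counts were 35 and 29, and the split over all genes was 36.5% higher in place of 49.8%.

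The summed FPKM of these 135 genes was 5859 ± 156 in KO, 5208 ± 67.4 in Het and 4530 ± 86.6 in WT (SD, n = 3, 4 and 4). The groups did not overlap: KO libraries spanned 5765 to 6039, Het libraries 5159 to 5303 and WT libraries 4432 to 4624. Without scaling, KO libraries (5401 to 5798) and Het libraries (5249 to 5435) overlapped, and both stayed above WT libraries (4459 to 4736). With upper quartile scaling KO libraries (5384 to 5911) and Het libraries (5073 to 5413) overlapped as well, and WT libraries (4339 to 4790) stayed below.

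**Figure D4:**
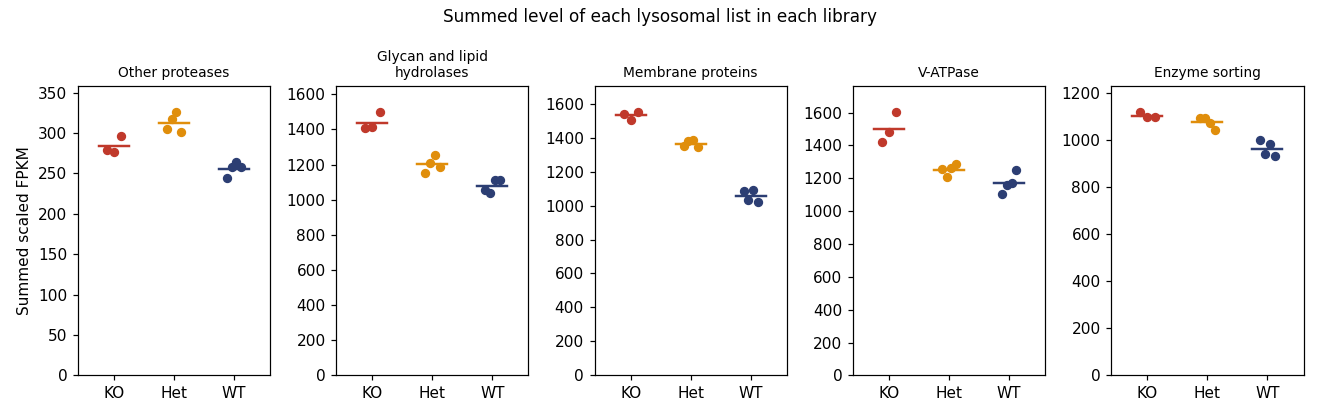
Summed scaled FPKM per library for the 5 lists of other lysosomal genes in KO, Het and WT; points are libraries, bars are group means and each axis starts at 0. KO libraries are highest for the hydrolases (1407 to 1497, against 1040 to 1115 in WT), membrane proteins and V-ATPase, while the other proteases are highest in Het.

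Among the other lysosomal proteases, 10 of 14 genes were tested. In KO against WT 3 rose and 5 fell, and in Het against WT 4 rose and 3 fell. The shares called were 80% and 70%, beside 47.1% and 43.8% of all tested genes. Tpp1, a tripeptidyl peptidase, averaged 41.9 ± 2.17 FPKM in KO, 33.5 ± 3.53 in Het and 17.2 ± 1.06 in WT and rose in both KO (log2 difference 1.24, adjusted p = 8.14e-07, limma) and Het (0.92, adjusted p = 5.98e-06). The cysteine protease genes Ctsh and Ctsc went the other way. Ctsh averaged 9.98 FPKM in KO, 3.23 in Het and 19.5 in WT, with a log2 difference of -2.28 in Het (adjusted p = 1.62e-07, limma). Ctsc averaged 5.74 FPKM in KO, 1.93 in Het and 10.2 in WT, with a log2 difference of -1.93 in Het (adjusted p = 9.69e-07, limma). Like Lgmn, both were lowest in Het, and unlike Lgmn they were highest in WT. Ctsf fell in KO (-0.85, adjusted p = 0.000212, limma), and Ctsz fell in KO against Het (-1.14, adjusted p = 3.39e-06). Of the cystatins, which inhibit cysteine cathepsins, Cstb and Cst3 were tested and neither passed in any comparison. Cstb, the more abundant, averaged 309 FPKM in KO, 316 in Het and 279 in WT (KO against WT 0.15, adjusted p = 0.211, limma), and without WT 4 it passed in Het against WT (0.25, adjusted p = 0.022).

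Of the hydrolases of glycans and lipids and their cofactors, 42 of 44 were tested, and in KO against WT 18 rose and 9 fell. Shares called were 64.3% in KO against WT, 57.1% in Het against WT and 52.4% in KO against Het. Over all tested genes they were 47.1%, 43.8% and 44.2%. Hexa, the α subunit of β-hexosaminidase, averaged 83.3 ± 4.34 FPKM in KO, 31.0 ± 1.11 in Het and 27.7 ± 1.55 in WT and rose in KO by 1.55 (adjusted p = 1.00e-08, limma). Gm2a, the activator protein that presents GM2 ganglioside to the same enzyme, averaged 2.66 ± 0.200 FPKM in KO, 7.23 ± 0.627 in Het and 11.8 ± 1.25 in WT and fell in KO (-1.80, adjusted p = 8.97e-08, limma). Enzyme and cofactor thus moved in opposite directions in KO. Aga, an amidase of glycoprotein breakdown, rose in KO (1.20, adjusted p = 1.04e-06, limma). In Het against WT 14 rose and 10 fell, led by a rise of Npc2, a cholesterol carrier (0.81, adjusted p = 5.29e-07, limma), and falls of Arsb (-0.71) and Glb1 (-0.69). In KO against Het 14 rose and 8 fell, and Plbd2 was among the largest rises (1.05, adjusted p = 0.000620, limma).

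Of the membrane proteins and their partners, 32 of 36 were tested, with 14 higher and 4 lower in KO against WT, 9 and 4 in Het against WT, and 11 and 7 in KO against Het. The shares called were 56.25%, 40.6% and 56.25% in this order, beside 47.1%, 43.8% and 44.2% of all tested genes. Grn, the lysosomal growth factor precursor progranulin, averaged 155 ± 15.9 FPKM in KO, 112 ± 10.1 in Het and 51.6 ± 5.64 in WT and rose in KO (1.57, adjusted p = 4.74e-07, limma) and in Het (1.11, adjusted p = 5.27e-06). Sort1, the sortilin receptor that carries progranulin to lysosomes, averaged 3.23 ± 0.206 FPKM in KO, 8.63 ± 0.506 in Het and 13.7 ± 0.425 in WT and fell in KO (-1.79, adjusted p = 6.82e-09, limma) and in Het (-0.61, adjusted p = 1.92e-05). Both had Het between KO and WT, as Lamp1 and Ctsd did. Mcoln1, the lysosomal calcium channel, averaged 45.8 FPKM in KO, 24.3 in Het and 16.6 in WT and rose in KO (1.42, adjusted p = 1.02e-06, limma). Lamp2, the close relative of Lamp1, rose in both KO (0.69) and Het (0.74, adjusted p = 7.40e-05, limma), averaging 192 FPKM in KO, 198 in Het and 119 in WT. Ctns, the cystine exporter, rose by 1.02 in KO and by 0.79 in Het, and Cln3 rose in KO against Het by 1.81 (adjusted p = 1.34e-06, limma).

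Of the subunits of the V-ATPase, the proton pump that acidifies the lysosome, 20 of 23 were tested, and in KO against WT 13 rose and 3 fell, with a median log2 difference of 0.33. Atp6v1g1 averaged 98.5 FPKM in KO, 53.9 in Het and 56.9 in WT and rose in KO by 0.78 (adjusted p = 1.96e-05, limma), and Atp6v0b (0.75) and Atp6v1d (0.73) rose with it. In Het against WT 4 rose and 4 fell, among them Atp6v1h (0.73) and the X-linked Atp6ap2 (0.66) up and Atp6v0e2 (-0.63) down. In KO against Het 8 rose and 2 fell. The shares of V-ATPase genes called were 80% in KO against WT, 40% in Het against WT and 50% in KO against Het. Over all tested genes they were 47.1%, 43.8% and 44.2%. Of the 18 genes for sorting enzymes to lysosomes, 9 rose and 3 fell in KO against WT, 6 rose and 1 fell in Het against WT, and 3 rose and 5 fell in KO against Het. For these sorting genes the shares called were 66.7%, 38.9% and 44.4% in the same order. Nagpa, which uncovers the mannose 6-phosphate tag, rose in KO (0.64, adjusted p = 0.0412, limma), a call lost under 12 of the alternatives (adjusted p up to 0.169). The coat gene Cltc (0.48) and the retromer gene Vps29 (0.47) rose too. Igf2r, the larger mannose 6-phosphate receptor, rose in Het against WT (0.60, adjusted p = 4.09e-05, limma) with the adaptor gene Gga2 (0.73) and the X-linked Rab9 (0.56), and Gnptab fell in KO against Het (-0.47). Without scaling, the sorting genes split into 4 higher and 4 lower in KO against WT, and the membrane genes into 14 and 7. Without KO 3, 4 sorting genes were higher in KO against WT and the 3 lower calls were lost, while 2 membrane genes and 5 hydrolase genes were lower. Without WT 3, Het 2 or Het 4, 2 membrane genes were lower in Het against WT, and without WT 4, 5 sorting genes were higher in KO against Het.

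**Figure D5:**
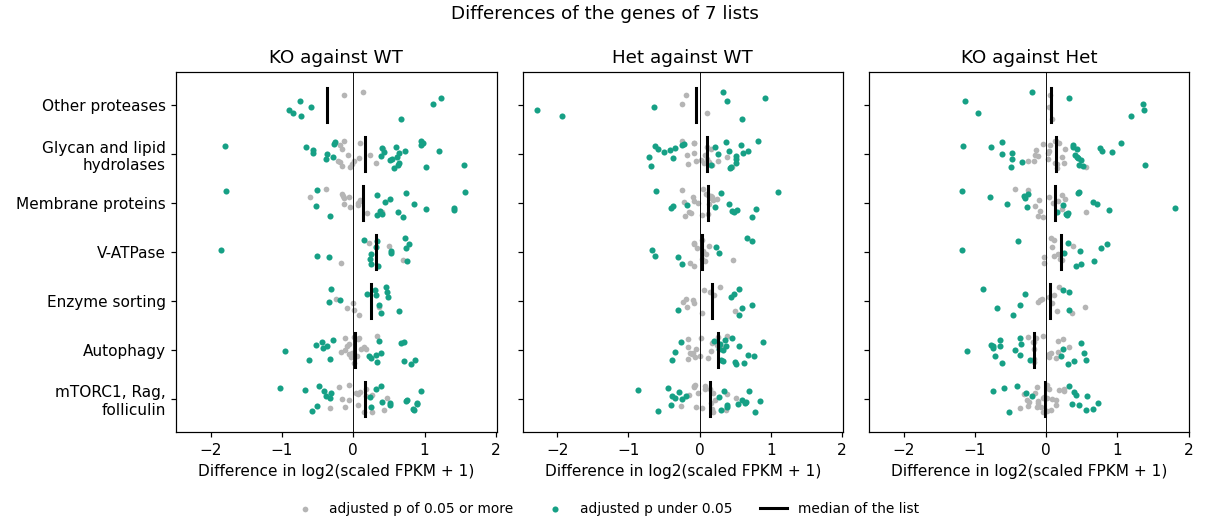
Fitted difference in log2(scaled FPKM + 1) of each tested gene in 7 lists for KO against WT, Het against WT and KO against Het; green points passed the limma threshold (adjusted p under 0.05), grey points did not, and black bars are list medians. The V-ATPase median is 0.33 in KO against WT and 0.03 in Het against WT, and the autophagy median is 0.25 in Het against WT and -0.17 in KO against Het.

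Autophagy genes include many known targets of the same factors. Of 36 tested, 16 rose and 3 fell in Het against WT, with a median log2 difference of 0.25, and 11 rose and 8 fell in KO against WT, with a median of 0.03. The share called was 52.8% in each of these comparisons, beside 43.8% (Het) and 47.1% (KO) of all tested genes. In KO against Het it was 55.6%, beside 44.2%. Of all tested genes, 21.7% rose and 22.1% fell in Het against WT. Without scaling the KO counts were 10 higher and 11 lower. Sqstm1, the autophagy receptor p62, averaged 217 ± 5.40 FPKM in KO, 175 ± 4.79 in Het and 124 ± 17.1 in WT and rose in KO (0.81, adjusted p = 2.79e-05, limma). Gabarapl1 rose in KO (0.86) and Atg4a, the protease that processes its family, fell (-0.96, adjusted p = 1.98e-05, limma). In Het, Rb1cc1, Vps18 and Wipi1 rose by 0.89, 0.77 and 0.68, and the call of Vps18 was lost without WT 1, WT 3, Het 3 or Het 4 (adjusted p 0.057 to 0.068, limma) and without the filter on low values (0.0593). In KO against Het 7 rose and 13 fell, with Atg14 (-0.78) and Atg9a (-0.75) among those that fell, and without scaling the counts were 3 and 18.

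Of the mTORC1, Rag, folliculin and calcineurin genes that control where TFEB and TFE3 reside, 40 were tested. In KO against WT 14 rose and 9 fell, in Het against WT 12 rose and 9 fell, and in KO against Het 9 rose and 6 fell. The shares called were 57.5%, 52.5% and 37.5%, beside 47.1%, 43.8% and 44.2% of all tested genes. Without scaling the KO counts turned to 11 higher and 12 lower against WT and 8 higher and 11 lower against Het. Rragc, a Rag GTPase that recruits TFEB to the lysosome, averaged 67.1 ± 1.28 FPKM in KO, 52.1 ± 2.1 in Het and 35.7 ± 1.89 in WT and rose in KO (0.89, adjusted p = 3.78e-07, limma). Ppp3cb, a catalytic subunit of calcineurin, which dephosphorylates TFEB, averaged 24.6 ± 1.57 FPKM in KO, 37.4 ± 2.13 in Het and 51.7 ± 6.87 in WT and fell in KO (-1.03, adjusted p = 1.06e-05, limma). The other calcineurin genes listed did not fall with it in KO against WT. Ppp3ca rose (0.32, adjusted p = 0.0172, limma) and Ppp3r1 did not pass the test (-0.20, adjusted p = 0.150). Of the sestrins, which signal amino acid shortage to mTORC1, Sesn2 rose in both KO (0.94) and Het (0.69). Sesn3 fell in both KO (-0.68) and Het (-0.86, adjusted p = 2.08e-05, limma). Sesn1 fell in KO against WT (-0.41) and rose in Het against WT (0.33). Fnip2, a folliculin partner, rose by 0.85 in Het and by 0.74 in KO. Rptor, the mTORC1 scaffold, rose by 0.77 in Het and did not pass the test in KO against WT (0.26). Rheb, the GTPase that activates mTORC1, rose in KO against Het (0.66, adjusted p = 3.92e-05, limma), and Sesn1 fell (-0.74).

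GPNMB is a known product of macrophages, melanocytes and osteoclasts, so markers of these cells were read beside it. The summed FPKM of 24 macrophage markers was 17.4 to 18.5 in KO, 25.5 to 31.5 in Het and 21.8 to 33.7 in WT, so Het and WT overlapped. Emr1, Tyrobp, Ptprc, Trem2, C1qb, C1qc and Cd52 were listed at 0 in all 11 libraries, and 4 of the 24 reached 1 FPKM in some group. Cd14 rose in Het against WT (averaging 3.22 FPKM in KO, 6.34 in Het and 3.25 in WT, log2 difference 0.79, adjusted p = 0.000782, limma), and Cd74 (-0.86, adjusted p = 0.00591) and Coro1a (-1.13, adjusted p = 0.00538) fell in KO against WT. The 16 melanocyte markers summed to 7.01 to 8.17 FPKM in KO, 5.74 to 6.34 in Het and 8.64 to 11.5 in WT, with Tyrp1, Oca2 and Sox10 listed at 0 throughout. Het was the lowest group for this sum, which was led by the vesicle transport gene Rab27a (3.37 FPKM in KO, 2.75 in Het and 5.22 in WT). Rab27a fell in Het (-0.73, adjusted p = 0.000336, limma) and in KO (-0.51). Rab38 (0.0995 FPKM in KO, 0.533 in Het and 1.25 in WT) fell as well (Het -0.55, KO -1.03). Kit, a receptor of melanocyte precursors, rose in KO (1.26, adjusted p = 2.93e-07, limma), averaging 1.44 FPKM in KO, 0.119 in Het and 0.0218 in WT. At the low levels of Rab38 and Kit the log2 difference depends on the pseudocount. The 10 osteoclast markers that are in no lysosomal list summed to 13.9 to 17.1 FPKM in KO, 10.8 to 13.3 in Het and 7.07 to 10.5 in WT. This sum was led by Nfatc1 (7.10 FPKM in KO, 7.82 in Het and 4.37 in WT), followed in KO by Itgb3 (6.46, against 1.62 in Het and 0.597 in WT). Dcstamp, Ocstamp and Siglec15 were listed at 0, and Oscar, Calcr and Car2 averaged at most 0.364 FPKM in any group. Acp5, outside this sum, averaged 0.0588 FPKM in KO, 0.293 in Het and 0.270 in WT. Nfatc1, the osteoclast transcription factor, rose in Het (0.74, adjusted p = 0.00115, limma) and in KO (0.61), and Itgb3 rose in KO (2.22, adjusted p = 7.90e-09) and in Het (0.72). Tnfrsf11a, the receptor RANK, rose in Het (0.53, adjusted p = 0.00140, limma) and in KO (0.29, adjusted p = 0.0422), the KO call being lost without any 1 of the KO or WT libraries, without scaling or the filter, with upper quartile scaling, with a pseudocount of 5 and with a replicate block (adjusted p 0.0509 to 0.127). Mmp9, a matrix protease of osteoclasts, fell in KO (-0.84, adjusted p = 0.00161, limma) and in Het (-0.75, adjusted p = 0.00243), with every KO and Het library below every WT library. The part of these markers in the Gpnmb levels was not tested.

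The labelled cell type was read from 18 fibroblast markers, whose summed FPKM was 4453 to 5011 in KO, 3145 to 3510 in Het and 2234 to 2717 in WT. Lum and Fap were at or near 0 in each group, and 16 genes were tested. In WT, Thy1 (0.0248), Postn (0.205), Pdgfra (0.212) and Dcn (0.803) also averaged below 1 FPKM. The largest WT means in the list were those of Vim (883), Sparc (666), S100a4 (346) and Fn1 (190), so these genes weigh most in the WT sum. In KO against WT 12 rose and the other 4 did not pass the test, and in Het against WT 12 rose and 2 fell. Over all tested genes 23.3% rose and 23.8% fell in KO, and 21.7% rose and 22.1% fell in Het. Among the fibroblast markers that rose were Col3a1 (KO 4.06, Het 4.93) and, in Het, Dcn (5.08) and Col1a2 (4.64, adjusted p = 6.98e-09, limma). Col1a2 averaged 11.5 FPKM in KO, 193 in Het and 6.86 in WT, and Dcn 1.18, 60.0 and 0.803 FPKM. The fibroblast sum moved with genotype in the order KO, Het, WT, as Lamp1, Ctsd and the summed lysosomal genes did, and Gpnmb did not follow that order. Its part in those differences was not tested. In KO against Het, 6 fibroblast markers were higher and 5 lower, beside 22% and 22.2% of all tested genes. Col1a2, Col3a1, Dcn, Pdgfra and Prrx1 had their highest mean in Het. The lysosomal sums of KO and Het overlapped without scaling and with upper quartile scaling.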

How the data were processed

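Poly(A) RNA of 11 libraries (3 KO, 4 Het, 4 WT) was made into stranded mRNA libraries, per the labels' protocols. The deposited FPKM and its interval are estimates per locus, and TopHat2 2.1.0, Cufflinks 2.2.1, Cuffdiff and the build GRCm38.p4 are named in the submitters' processing notes. Each table lists 48892 loci, and counts were not used here. Cufflinks estimates share reads among overlapping loci. FPKM does not state depth, so relative depth was read from the widths of the FPKM intervals over many loci of each library.

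FPKM of loci sharing a symbol (1766 symbols) were summed. In WT 1, 31 symbols had become dates and were taken from the other tables. Library factors of 0.937 to 1.04, the median of ratios taken on 13981 genes, put the values on a common scale. Genes with at least 1 FPKM in at least 3 libraries were fitted as log2(FPKM + 1), which understates changes of low genes, with limma 3.58.1 in R 4.3.3, 1 mean per group, a mean-variance trend and a shared spread. Benjamini-Hochberg adjustment covered the 14948 genes tested, the threshold was 0.05, and the fit was tested on simulated data.

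The 10 genes and all lists were chosen with earlier results of these data known. Named besides the 10 genes are Tfec and, per list and comparison, up to 3 genes past the threshold with the largest difference and at least 5 FPKM in the higher group (or the most abundant gene where none passed). Also named are the 5 genes most like Gpnmb and its 4 nearest neighbours on each side, without predicted and clone names, and some genes beside these were taken after their values were seen. Of 41 genes listed around mTORC1, 1 was not used here. Promoters came from the RefSeq table of 32851 windows (27025 symbols), in which 9 of the 10 genes matched. Alternatives were no scaling, upper quartile scaling, pseudocounts of 0.1 and 5, no filter, a replicate block, fits of only 2 groups, the primary locus only, no trend, and each library left out.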

Additional observations from a re-analysis of the deposited data

Results flagged for a closer look

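Not every gene named in the text was examined here, and Atp6ap1 was not. Of 88 genes examined in the 4 Het or the 4 WT libraries, 7 had a library far from the other 3 (a gap to the nearest above Dixon's 95% critical share of the range, which chance passes in about 1 of 20 groups). They are Glb1 in Het 2 (16.76 FPKM, gap over range 0.954), Cln3 in Het 4 (0.7214 FPKM, 0.959), Rheb in Het 2 (62.66 FPKM, 0.919), Cstb in WT 4 (318 FPKM, 0.942), Fnip2 in WT 3 (5.06 FPKM, 0.832), Cd14 in WT 4 (4.111 FPKM, 0.832) and Fn1 in WT 1 (178.8 FPKM, 0.857). None of the 10 lysosomal genes was among them.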

How the results depend on the processing

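The log2 difference of Gpnmb in Het against WT (5.67) was 8.45 with a pseudocount of 0.1 and 3.51 with 5, and in KO against Het (-5.66) it was -8.35 and -3.51, since the other group lies near 0. Leaving out each library in turn gave 5.63 to 5.73 and -5.72 to -5.62, and -0.02 to 0.03 in KO against WT. Genes called ranged from 5790 to 7913 in KO against WT, 5681 to 7313 in Het against WT and 5464 to 7285 in KO against Het. Other lysosomal genes called higher ranged from 47 to 62, 32 to 42 and 37 to 45, and called lower from 15 (without KO 3; the cause was not tested) to 27, 18 to 26 and 22 to 26. Of the 110 named calls that were examined, 6 were lost under some alternative, each of them also without some library. They were Nagpa, Vps18, Tra2a, Tnfrsf11a, Slc43a3 in KO against WT (adjusted p 0.0322, 0.0692 without the filter, limma) and Cd74 in KO against Het (0.051 without KO 4, limma). Cstb, not called in KO against Het, changed sign there without Het 3, KO 1 or KO 3 (log2 differences of -0.12 to 0.0068 with each library left out). Deviations from the group means correlated between same-numbered libraries for number 4 (r 0.254 to 0.352) and less evenly for number 1 (0.0445 to 0.332), but not for numbers 2 and 3 (-0.101 to -0.0101). As not every pair passed 0.1, nor did every library correlate best with its own number, the numbers were not taken as pairs. With a replicate block, 7294, 6993 and 6879 genes were called in KO against WT, Het against WT and KO against Het. Without X-linked genes, an alternative chosen after seeing the data, other lysosomal genes were 54 higher and 23 lower in KO against WT, 33 and 22 in Het against WT, and 40 and 23 in KO against Het. With 3 or 4 libraries a group, FPKM under 1 and differences of low genes are poorly resolved.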
